A study of Mus musculus with 2 samples.

Results

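The genes described here encode the machinery of oxidative phosphorylation: the 4 complexes of the mitochondrial electron transport chain and the ATP synthase, often called complex V. They were chosen by name, as every gene whose symbol starts with Ndufa, Ndufb, Ndufc, Ndufs, Ndufv, Sdh, Uqcr, Atp5, mt-Nd, mt-Co, mt-Cytb or mt-Atp, or with Cox and a digit from 4 to 8. The rule found 111 of the 32287 genes in the count table. Of these members, 98 lie in the nuclear genome: 39 subunits of complex I, 8 assembly factors of complex I, 8 subunits and assembly factors of complex II, 8 genes of complex III, 18 of complex IV and 17 of complex V. The other 13 are all protein-coding genes of mitochondrial DNA. They were measured by single-cell RNA sequencing in primary cultures of mouse ventricular wall, in which progenitors turn into multiciliated cells (MCCs), the ependymal cells that line the brain ventricles and beat cerebrospinal fluid along. Newborn mice (P0 to P2) gave the cells, which grew to confluence in serum and were shaken overnight to remove other cell types. Both cultures were untreated and were taken after 2 days without serum. The mice were of the C57BL/6N substrain for replicate 1, and of C57BL/6J for replicate 2, so replicate and substrain cannot be told apart. Nothing in the labels says how many animals were pooled. In the main fit, p-values measure only how differences between populations vary between these 2 libraries. The overall difference between the libraries was taken out there as a block. No allele or transgene is named in the labels.

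Electrons from NADH enter the chain at complex I and those from succinate at complex II, pass through ubiquinone to complex III and through cytochrome c to complex IV, and end on oxygen. Complexes I, III and IV pump protons across the inner mitochondrial membrane, and the ATP synthase uses the returning protons to make ATP. Most subunits are encoded in the nucleus and imported, while the core membrane subunits of complexes I, III, IV and V are encoded in mitochondrial DNA, apart from complex II, which is all nuclear. The mitochondrial genes are transcribed as long precursors from both strands of the circle. Several complex IV and ATP synthase subunits have paired genes, often with 1 broadly used form and 1 form known from a tissue such as heart, skeletal muscle or testis.

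The deposited table held 12028 cells with 173510950 UMIs (unique molecular identifiers, each counting 1 captured RNA molecule) in replicate 1, and 4373 cells with 70611931 UMIs in replicate 2. Each cell carried 1 of 14 deposited population names. The multiciliated lineage runs from progenitors I and II, the non-cycling progenitors of this text, through early, mid and late deuterosomal cells, which mass-produce centrioles, to early MCCs and MCCs. Cycling progenitors, neuroblasts, oligodendrocyte precursor cells (OPCs), oligodendrocytes, microglia, fibroblasts and unannotated cells made up the rest. Mean marker levels followed these names in part. The 7 astroglial markers were highest in progenitors I (724 and 764 CPM, counts per 1000000 UMIs, in replicates 1 and 2). The 7 deuterosomal markers were highest in mid deuterosomal cells (337 and 363 CPM) and the 8 multiciliated markers in early MCCs (562 and 580 CPM). The multiciliated markers were already at 548 and 521 CPM in mid deuterosomal cells, so the stages grade into each other. In MCCs they were at 449 and 457 CPM, below mid and late deuterosomal cells and early MCCs. The libraries shared 13 cell barcodes. The highest share of mitochondrially encoded UMIs in a cell was 9.0% in replicate 1 and 9.99% in replicate 2, so the deposited cells had been filtered on this share with different limits. Cells above 8% made up 0.648% of replicate 1 and 11.7% of replicate 2. Levels are CPM of the summed cells of a population, and paired values give replicate 1 and then replicate 2. Only the 3′ end of a molecule was read and each molecule was counted once, so no scaling by gene length was applied. A lower CPM can mean fewer molecules of that gene or more of others in the same cells, which CPM does not separate.

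Between non-cycling progenitors and mid deuterosomal cells, the summed share of nuclear members was higher and that of mitochondrially encoded members lower. Of the nuclear members, the 10 with the largest mean difference were Ndufaf3, Cox7a2, Ndufb5, Ndufs5, Atp5md, Ndufb9, Atp5g1, Cox6c, Ndufab1 and Uqcrq. They summed to 4892 CPM in replicate 1 and 4231 CPM in replicate 2, beside net differences of 6082 and 4951 CPM. They were picked by this same difference, so their sum does not show how few genes carried it. The net value also holds members with a negative difference, and 54 and 53 of the 98 members had a positive one. Nuclear members together took 3.51% of all UMIs in progenitors I in replicate 1 and 3.0% in replicate 2, and 3.18% and 2.84% in progenitors II. Their share was 3.44% and 2.98% in early deuterosomal cells, 3.95% and 3.41% in mid, 4.17% and 3.59% in late deuterosomal cells, 4.29% and 3.54% in early MCCs, and 3.24% and 3.05% in MCCs. Within each library the nuclear share was therefore higher in mid and late deuterosomal cells and early MCCs than in both non-cycling progenitor populations, and in MCCs it lay between the 2 progenitor values in replicate 1 and just above both in replicate 2.

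Mitochondrially encoded members took 4.74% and 6.73% of UMIs in progenitors I, 4.58% and 6.23% in progenitors II, 3.99% and 5.70% in early, 3.22% and 5.34% in mid and 3.65% and 5.89% in late deuterosomal cells, 4.34% and 6.63% in early MCCs and 4.32% and 6.60% in MCCs. The lowest of these 7 values fell in mid deuterosomal cells in each library. The ratio of mitochondrially encoded to nuclear UMIs was 1.35 and 2.24 in progenitors I, 0.814 and 1.57 in mid deuterosomal cells, and 1.33 and 2.17 in MCCs. Across libraries the ratio averaged 1.80 ± 0.631 (SD, n = 2) in progenitors I and 1.19 ± 0.532 in mid deuterosomal cells, so the values pooled over libraries overlap, while within each library the ratio in mid deuterosomal cells was below that in both non-cycling progenitor populations. No test was made on these sums.

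**Figure D1:**
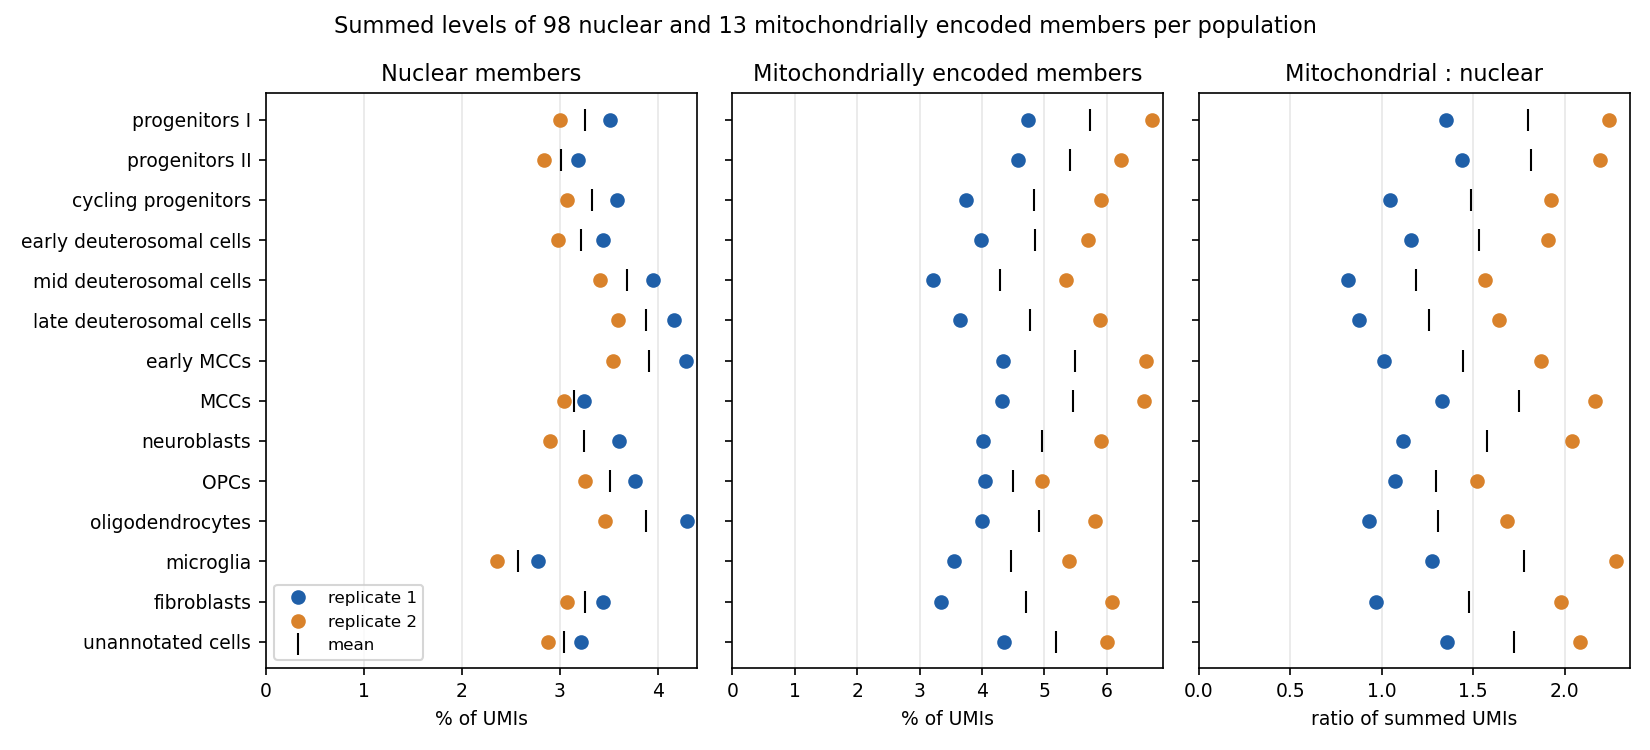
Summed levels of the 98 nuclear members and the 13 mitochondrially encoded members as percent of all UMIs, and the ratio of the latter to the former, for each population (rows). Blue points are replicate 1, orange points replicate 2 and black ticks their mean; in both libraries mid deuterosomal cells had the lowest ratio of the progenitor and lineage populations (0.814 and 1.57), and replicate 2 lay to the right of replicate 1 for mitochondrially encoded members in all 14 populations.

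In each lineage stage the libraries differed in the mitochondrially encoded share by more than the stages differed within a library. In all 14 populations replicate 2 had the higher mitochondrially encoded share, by 1.23 to 1.82 times, and the lower nuclear share, at 0.804 to 0.939 times that of replicate 1. Within cycling progenitors, cells of the deposited class G0 had 4.23% and 6.28% mitochondrially encoded UMIs and cells of class S/G2 had 3.59% and 5.59%. In mid deuterosomal cells the S and S/G2 classes lay at 2.93% and 3.24% in replicate 1 and at 5.36% and 5.35% in replicate 2. Depth and the share of ribosomal protein transcripts moved along the lineage too. The median cell of progenitors I held 10490 UMIs in replicate 1 and 13128 in replicate 2, that of mid deuterosomal cells 17984 and 20436, and that of MCCs 13053 and 16748. Cytosolic ribosomal protein genes took 10.1% ± 0.0621 (SD, n = 2) of UMIs in progenitors I, 5.59% ± 0.192 in mid deuterosomal cells and 6.05% ± 0.126 in MCCs. When cells were thinned to 5000 UMIs, leaving out 607 shallower cells, the summed shares of both groups moved by less than the spread between libraries. Thinning at random keeps the expected shares of each cell, so this result cannot address depth, whose part was not tested. The part of ribosomal protein transcripts in the shifts of the members was not tested.

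Deuterosomal stages were first compared with non-cycling progenitors, which asks what centriole production brings with it. Markers of dividing cells moved with this comparison: the mean of 5 such genes was 9.73 and 8.97 CPM in progenitors I, 11.7 and 10.9 in progenitors II, 97.8 and 123 in early, 272 and 309 in mid and 224 and 228 in late deuterosomal cells, and 7.31 and 7.72 in MCCs. Their part in the results was not tested. UMI counts summed per population and library were fitted with edgeR's quasi-likelihood test with the library as a block, over 15877 genes; 108 members passed the low count filter, 95 nuclear and 13 mitochondrially encoded. The 3 below it were Cox4i2, Cox7b2 and Cox8b. At an adjusted p under 0.05, 32 of the 95 nuclear members were higher and 15 lower in deuterosomal cells. Of all genes tested, 36.2% were higher and 34.3% lower, so the count of nuclear members higher was close to the background and the count lower was well under it. The median log2 fold change was 0.05 for nuclear members and 0.01 for all genes. Mitochondrially encoded members were all lower, 13 of 13, with a median of −0.33. Every one of these calls had the same sign in each library taken alone. The same libraries made the calls, so agreement in sign, here and below, is not a separate check. With relative log expression size factors the nuclear counts became 31 higher and 24 lower, and with DESeq2 33 and 28. Without the library as a block 22 nuclear members were higher and 3 lower, and 2 of 13 mitochondrially encoded members were lower.

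**Figure D2:**
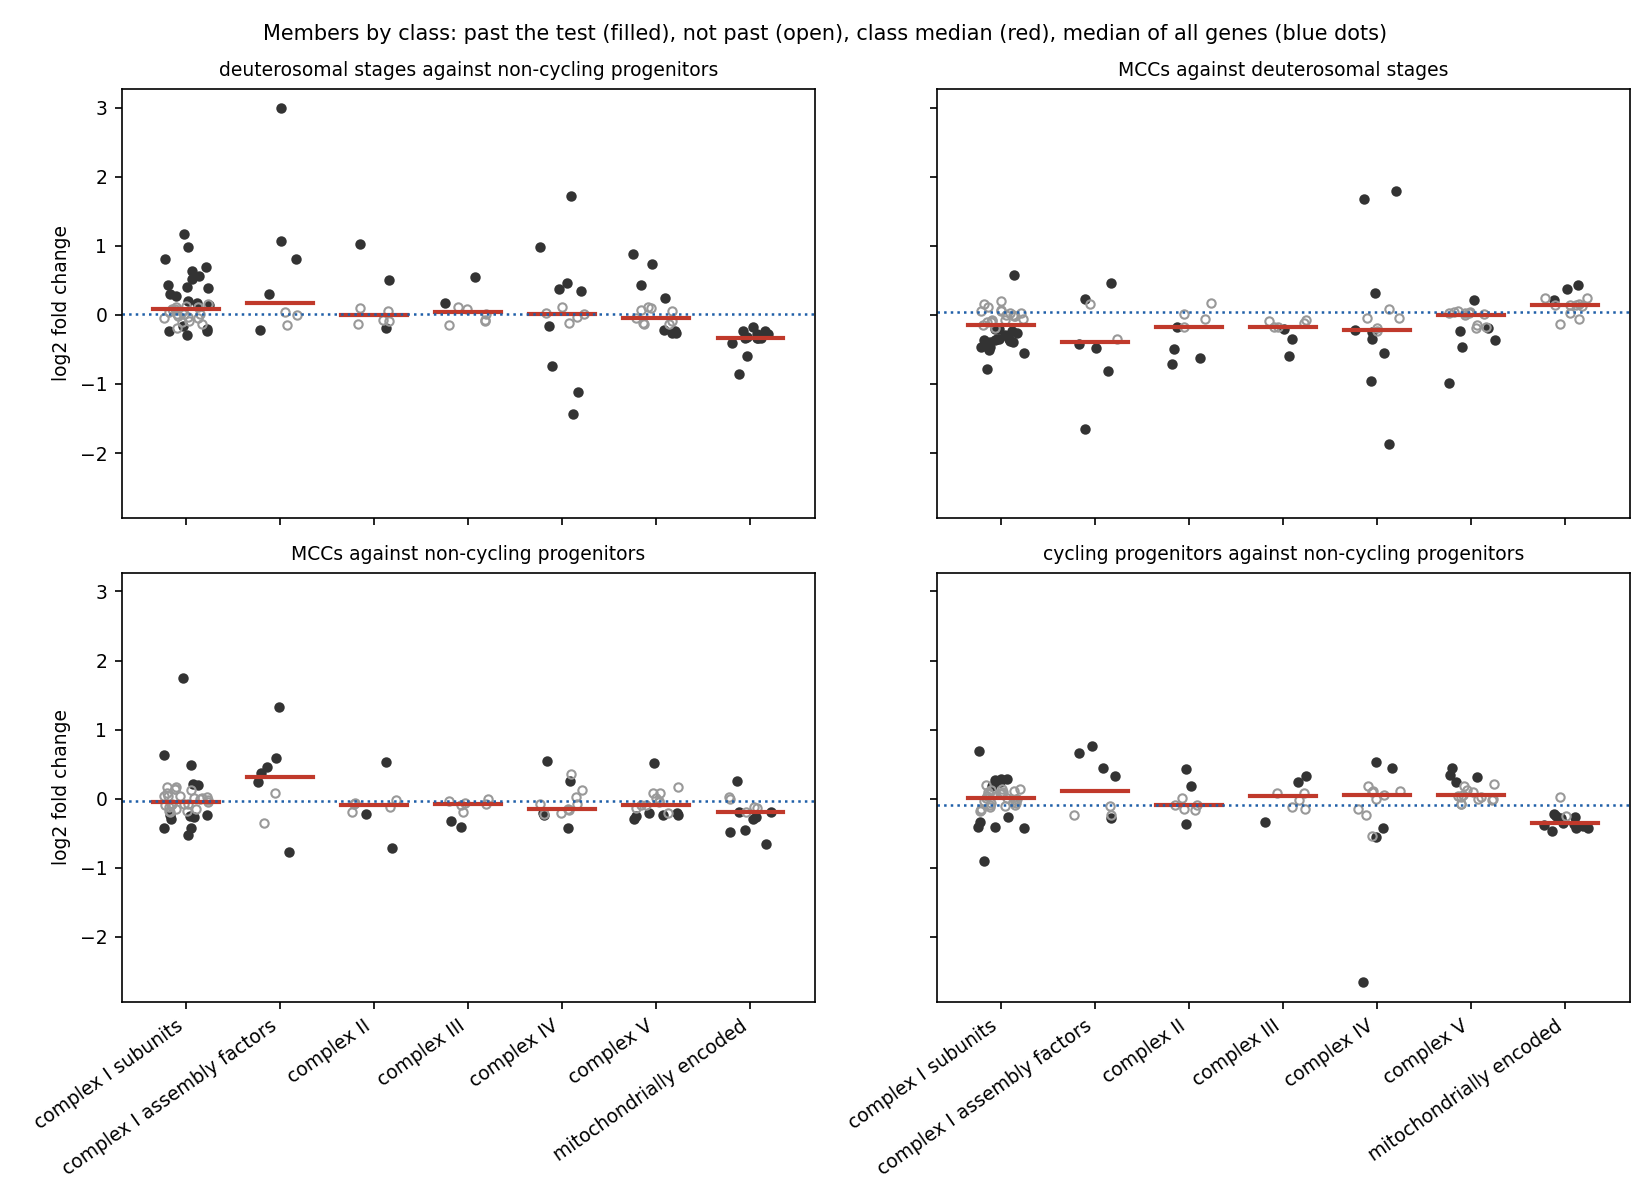
Log2 fold change of each tested member in the 4 main comparisons, by complex. Filled points passed the test, open points did not, red bars are class medians, and the blue dotted line is the median of all genes tested (0.01 for deuterosomal stages against non-cycling progenitors); Cox6a2, with 19 and 5 UMIs in the libraries, is not drawn. The class median of mitochondrially encoded members lies below the dotted line in the 3 comparisons with non-cycling progenitors (−0.33, −0.19 and −0.35) and above it in MCCs against deuterosomal stages (0.14).

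Complex I assembly factors held the largest change of any member in this comparison. Ndufaf3, which helps to build the arm of complex I that binds ubiquinone, was at 63.4 CPM in replicate 1 and 51.6 CPM in replicate 2 in progenitors I, and at 81.7 and 72.3 CPM in progenitors II. It reached 318 and 336 CPM in early, 923 and 829 CPM in mid and 513 and 535 CPM in late deuterosomal cells, then 227 and 215 CPM in early MCCs and 172 and 174 CPM in MCCs. Cycling progenitors had 68.7 and 60.6 CPM. No deuterosomal value overlaps a progenitor value. In the fit Ndufaf3 was 7.95-fold higher in deuterosomal stages (log2 2.99, SE 0.11, adjusted p = 4.6e-16). It gave 850.0 and 767 CPM of the net rise of 6082 and 4951 CPM in the nuclear sum between non-cycling progenitors and mid deuterosomal cells. Ndufaf7, a methyltransferase that acts on a complex I subunit, was 1.07 higher on the log2 scale (SE 0.08, adjusted p = 3.9e-12), although its 3′ end holds a stretch at least 95% identical to parts of other counted genes. Ndufaf2, another assembly factor, was lower (−0.22, SE 0.08, adjusted p = 0.012). Of 8 assembly factors tested, 4 were higher and 1 lower, beside 36.2% and 34.3% of all genes.

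Among the 39 complex I subunits tested, 15 were higher (38.5%) and 5 lower (12.8%) in deuterosomal stages, with a median of 0.09. Beside 36.2% and 34.3% of all genes, the share higher was near the background and the share lower under it. Ndufa4l2, a relative of Ndufa4 that is known as a hypoxia-induced gene, had 7.71 and 10.1 CPM over non-cycling progenitors and 17.8 and 22.1 CPM over deuterosomal stages (log2 1.17, SE 0.11, adjusted p = 1.5e-09). Ndufb5, a membrane arm subunit, was in contrast abundant, at 466 and 426 CPM against 976 and 878 CPM (0.98, SE 0.08, adjusted p = 8.5e-11). Neither gene had overlapping groups. The lowest were Ndufa3 (−0.29, SE 0.06) and Ndufa5 (−0.23, SE 0.06), both accessory subunits, with adjusted p of 4.7e-05 and 0.0012. Ndufa4 itself, which is now counted as a subunit of complex IV, did not pass (−0.03, SE 0.06, adjusted p = 0.69).

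In complex II, the succinate dehydrogenase, the membrane anchor Sdhd and the assembly factor Sdhaf4 were higher and the flavoprotein Sdha was lower. Sdhaf4 stood at 165 and 118 CPM over non-cycling progenitors and at 326 and 265 CPM over deuterosomal stages (1.02, SE 0.07, adjusted p = 3.9e-13). Sdhd changed by 0.50 (SE 0.06, adjusted p = 2.9e-08) and Sdha by −0.19 (SE 0.06, adjusted p = 0.0059). Complex III had 2 of 8 genes higher and none lower, beside 36.2% and 34.3% of all genes. Uqcrq, a small subunit near ubiquinone binding sites, was higher by 0.54 (SE 0.06, adjusted p = 1.5e-08). The core protein Uqcrc1 was higher by 0.17 (SE 0.06, adjusted p = 0.022). The parts of one complex thus did not share 1 change.

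Complex IV, cytochrome c oxidase, showed changes between its paired genes. Cox6b2, the testis form of subunit 6b, had 52.0 and 30.5 CPM in progenitors I, 73.0 and 66.2 in early, 304 and 208 in mid and 328 and 257 in late deuterosomal cells, 272 and 162 in early MCCs and 43.8 and 58.4 in MCCs. It was 1.72 higher in deuterosomal stages on the log2 scale (SE 0.15, adjusted p = 3.4e-08), while the common form Cox6b1 did not pass (−0.12, SE 0.07, adjusted p = 0.092). As a share of both forms, Cox6b2 was at 5.66% ± 1.53 (SD, n = 2) in progenitors I, at 32.3% ± 1.71 in late deuterosomal cells and at 7.99% ± 1.69 in MCCs.

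Subunit 7a gave the clearest opposite movement. Cox7a2, the broadly used form, had 490 and 383 CPM in progenitors I and 1159 and 922 CPM in mid deuterosomal cells, and differed by 0.98 in the fit (SE 0.07, adjusted p = 1.7e-12). Cox7a2l, which encodes a protein that joins complexes III and IV into supercomplexes, had 345 and 418 CPM in progenitors I and 187 and 202 CPM in mid deuterosomal cells (−0.74, SE 0.08, adjusted p = 4.6e-09). Its share of the UMIs of Cox7a2 and Cox7a2l was 41.3% and 52.2% in progenitors I, 13.9% and 17.9% in mid deuterosomal cells and 36.5% and 44.2% in MCCs. Cox7a1, the heart and muscle form, was rare and fell as well, from 14.3 and 7.39 CPM in progenitors I to 3.42 and 1.94 CPM in mid deuterosomal cells (−1.12 over the 3 stages, SE 0.16, adjusted p = 2.2e-06). Cox8c, a testis form near 1 CPM, was lower (−1.43, SE 0.36, adjusted p = 0.0011), with log2 differences of −1.41 in replicate 1 and −0.11 in replicate 2. Cox7b was slightly lower (−0.17, SE 0.07, adjusted p = 0.034). Cox4i1, Cox8a and Cox6a1 did not pass. Cox6a2 was tested with 19 and 5 UMIs in the whole libraries and did not pass either, and its sister forms Cox4i2, Cox7b2 and Cox8b had 105 and 13, 58 and 27, and 3 and 2 UMIs.

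The 3 genes Atp5g1, Atp5g2 and Atp5g3 encode the same mature subunit c, the ring of the ATP synthase, with different import sequences, and they did not move together. Over deuterosomal stages against non-cycling progenitors Atp5g1 was higher by 0.74 (SE 0.07, adjusted p = 9.0e-10) and Atp5g3 by 0.24 (SE 0.06, adjusted p = 0.0015), whereas Atp5g2 was lower by 0.23 (log2 −0.23, SE 0.06, adjusted p = 0.0032). Atp5g1 had 415 and 312 CPM in progenitors I, 773 and 607 CPM in mid deuterosomal cells and 337 and 259 CPM in MCCs. Atp5g2 had 887 and 662, 692 and 491, and 747 and 590 CPM in the same populations. The share of Atp5g1 in all 3 was 24.6% ± 0.0645 (SD, n = 2) in progenitors I, 40.9% ± 0.246 in mid deuterosomal cells, 29.2% ± 0.743 in early MCCs and 22.8% ± 0.939 in MCCs. The 3′ end of Atp5g2 has near-identical copies in 2 pseudogenes that were not counted here. Atp5md, a small subunit that holds ATP synthase dimers together, was higher by 0.88 (SE 0.10, adjusted p = 5.0e-08). The stator subunit Atp5h and the small subunit Atp5mpl were both lower by 0.26, with SE 0.07 and 0.06. In all, 4 of 17 complex V genes were higher and 4 lower (23.5% each), under the 36.2% and 34.3% of all genes.

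**Figure D3:**
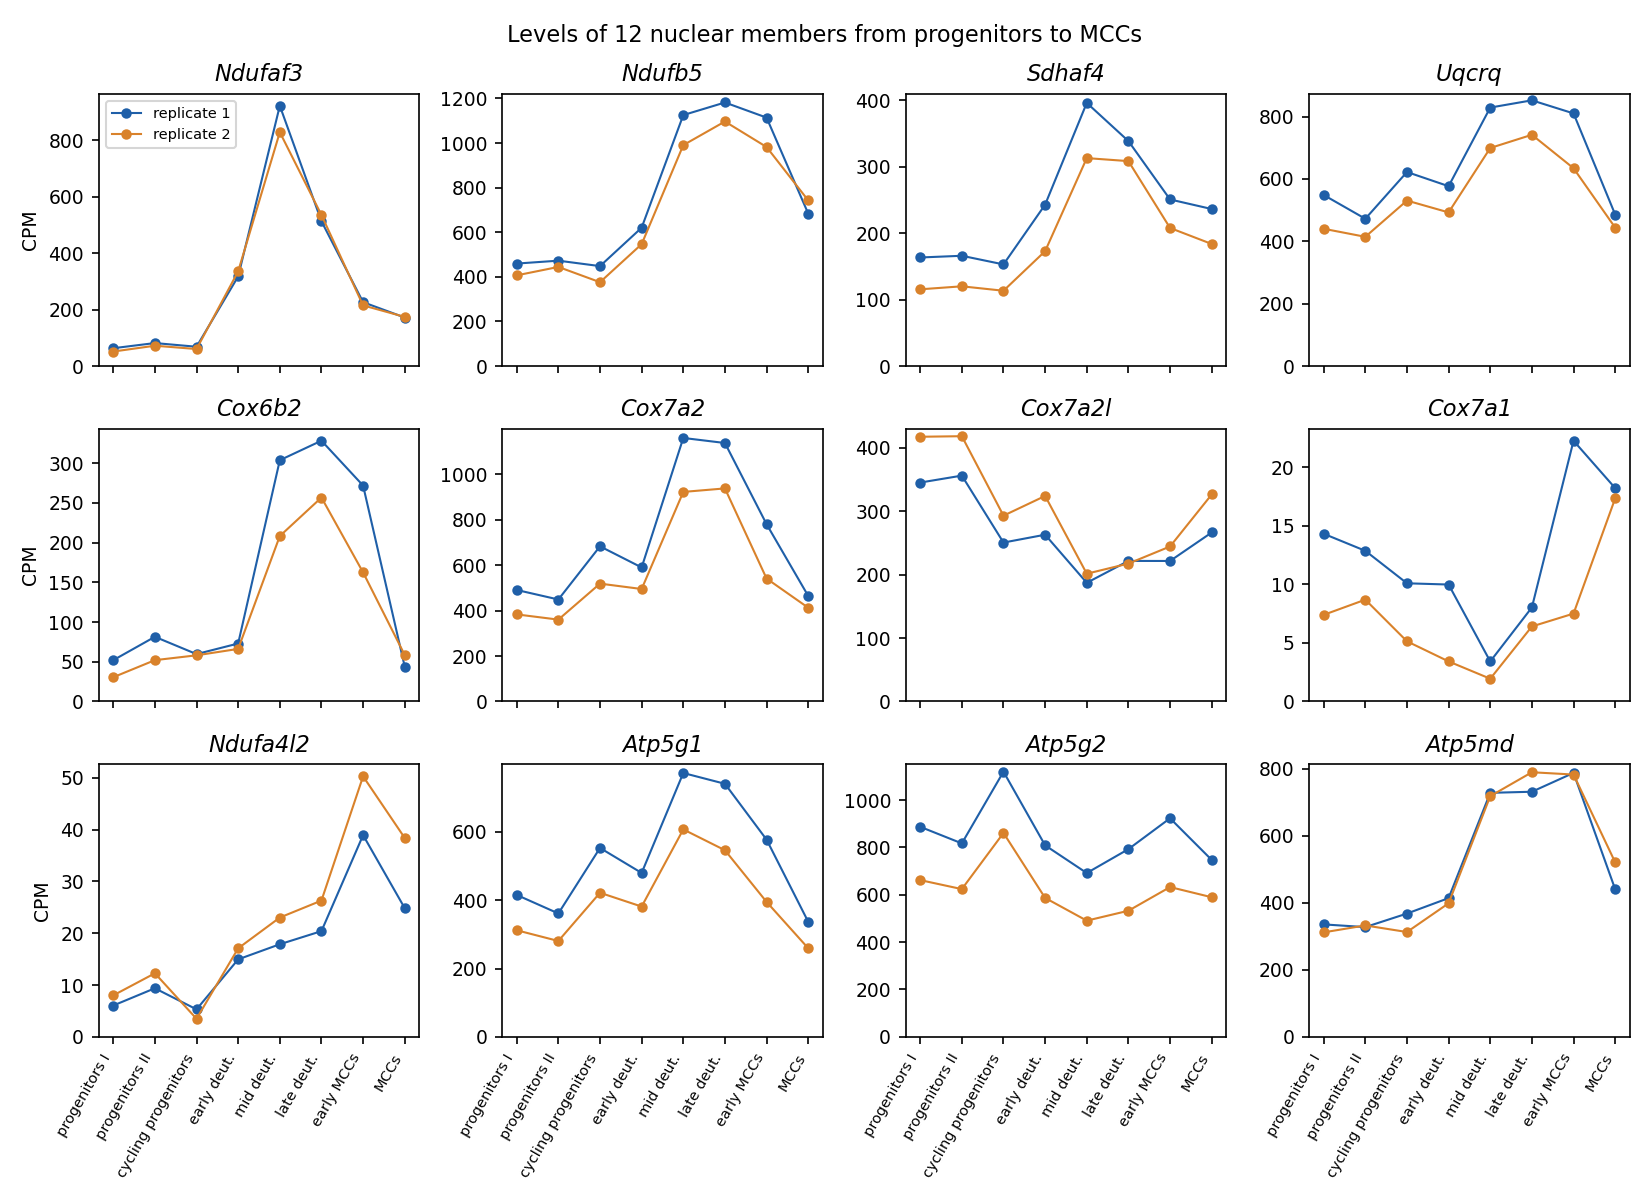
CPM of 12 nuclear members in progenitors I and II, cycling progenitors and the 5 lineage stages (horizontal axis), each axis starting at 0; blue is replicate 1 and orange replicate 2. Ndufaf3 peaks in mid deuterosomal cells at 923 and 829 CPM, Cox7a2 and Cox7a2l run in opposite directions, and Atp5g1 peaks where Atp5g2 is lowest.

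Promoters are shown for Ndufaf3, the member with the largest change between deuterosomal stages and non-cycling progenitors, and for 3 ATP synthase genes, 2 of which encode the same protein and moved in opposite directions. RefSeq gave promoters (250 bases before to 50 after a start site, build GRCm38.p6) for 80 of the 98 nuclear members. Both strands were searched for CCGGAAG, the core bound by ETS factors such as GABP, for GTTGCC, a half-site of RFX factors, and for the cores of NRF1, a palindrome, of YY1 and of E2F. Matches are in capitals. All 4 genes lie on the minus strand, and the letters run 5′ to 3′ with the gene, at chr9:108567387-108567686, chr19:47090598-47090897, chr11:96075582-96075881 and chr15:102670998-102671297.
Ndufaf3: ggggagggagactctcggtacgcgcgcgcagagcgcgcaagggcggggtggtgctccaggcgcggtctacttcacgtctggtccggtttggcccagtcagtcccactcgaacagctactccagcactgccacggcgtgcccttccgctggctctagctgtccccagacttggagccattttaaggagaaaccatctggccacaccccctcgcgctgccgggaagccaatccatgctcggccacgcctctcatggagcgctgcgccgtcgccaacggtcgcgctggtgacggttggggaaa
Atp5md: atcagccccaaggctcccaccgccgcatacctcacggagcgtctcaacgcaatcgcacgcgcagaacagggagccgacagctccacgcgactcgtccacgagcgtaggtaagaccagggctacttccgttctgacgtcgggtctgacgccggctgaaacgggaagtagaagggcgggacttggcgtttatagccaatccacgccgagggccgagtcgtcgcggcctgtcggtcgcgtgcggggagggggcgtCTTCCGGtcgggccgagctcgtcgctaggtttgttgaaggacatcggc
Atp5g1: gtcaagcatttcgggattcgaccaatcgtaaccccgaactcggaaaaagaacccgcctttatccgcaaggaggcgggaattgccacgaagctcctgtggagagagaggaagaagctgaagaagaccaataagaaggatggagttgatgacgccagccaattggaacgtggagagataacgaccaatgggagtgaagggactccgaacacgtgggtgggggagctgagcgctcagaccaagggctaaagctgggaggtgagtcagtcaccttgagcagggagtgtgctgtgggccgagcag
Atp5g2: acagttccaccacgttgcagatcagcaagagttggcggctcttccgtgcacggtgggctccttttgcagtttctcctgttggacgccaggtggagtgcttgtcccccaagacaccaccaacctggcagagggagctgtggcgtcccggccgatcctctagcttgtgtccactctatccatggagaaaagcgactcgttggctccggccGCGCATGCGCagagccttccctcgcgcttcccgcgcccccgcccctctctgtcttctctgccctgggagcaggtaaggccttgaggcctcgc
The NRF1 core is in the Atp5g2 window, where both strands match the palindrome, and the ETS core is on the opposite strand of the Atp5md window. The 5′ end of the Atp5g2 gene is annotated at chr15:102672352, so its window lies inside the gene, at an internal start site. None of the motifs named above is in the Ndufaf3 and Atp5g1 windows, which says only that these letters are not there. The CCAAT box was searched too but not put in capitals, and both of these windows hold it. It was in 43.8% of nuclear members with a promoter, against 41.1% of all genes with a promoter and 43.1% of the genes tested.

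Over all nuclear members with a promoter, 7 of 80 (8.75%) held the NRF1 core, against 1.07% of all genes with a promoter and 2.17% of the genes tested. The ETS core was in 27.5% of members against 9.93% and 18.6%, and the YY1 core in 7.50% against 0.995% and 2.18%. The RFX half-site was in 11.2% against 14.1% and 15.5%, and the E2F core in 2.50% against 0.929% and 1.77%. Among the 26 members higher in deuterosomal stages that had a promoter, 3.85% (1 gene) held the NRF1 core, 19.2% (5) the ETS core and 11.5% (3) the YY1 core. In the 54 other members with a promoter the shares were 11.1%, 31.5% and 5.56%. These shares are descriptions of letters, on 26, 54 and 80 genes, and were not tested.

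Mitochondrial transcripts differed in how much lower they were in deuterosomal stages. mt-Nd6, the only member encoded on the opposite strand of the circle (chrM:13552-14070, minus strand, mm10), was lower by most: it had 45.7 and 50.4 CPM in progenitors I and 20.4 and 29.0 CPM in mid deuterosomal cells (−0.85, SE 0.09, adjusted p = 1.1e-08). mt-Nd3 followed with −0.60 (SE 0.08, adjusted p = 6.2e-07) and mt-Co2 with −0.41 (SE 0.06, adjusted p = 1.9e-06). mt-Atp8, mt-Atp6, mt-Co3, mt-Cytb and mt-Nd1 lay between −0.34 and −0.32, mt-Nd2 and mt-Nd4l at −0.28, mt-Nd4 at −0.24 and mt-Nd5 at −0.23. mt-Co1, the catalytic core of complex IV, was lower by least (−0.17, SE 0.07, adjusted p = 0.047). Each of the 13 was lower in each library taken alone.

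Between the libraries the same transcripts differed too. mt-Nd3 had 153 CPM over all cells of replicate 1 and 470 CPM over those of replicate 2, a ratio of 3.08, and mt-Nd1 had 1093 and 2496 CPM. mt-Nd4l went the other way, at 903 and 412 CPM, as did mt-Atp8, at 71.2 and 50.1 CPM. The remaining 11 were all higher in replicate 2. The exons of mt-Nd4l and mt-Nd4 overlap on the same strand, as do those of mt-Atp8 with mt-Atp6 and of mt-Atp6 with mt-Co3, so reads in the shared bases cannot be assigned to 1 gene. Of the nuclear members compared, 94 with enough UMIs, 14 were higher in replicate 2, with ratios from 0.533 to 1.22. More than 1 Cell Ranger version is named for the series, and the part of the software, the substrain or the culture in these ratios cannot be told apart. Nnt, the transhydrogenase of the inner membrane in which the C57BL/6J substrain is known to carry a deletion, had 3.26 CPM in replicate 1 and 3.50 CPM in replicate 2. A tag at the 3′ end lies outside the deleted exons, so this level does not check the substrain.

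**Figure D4:**
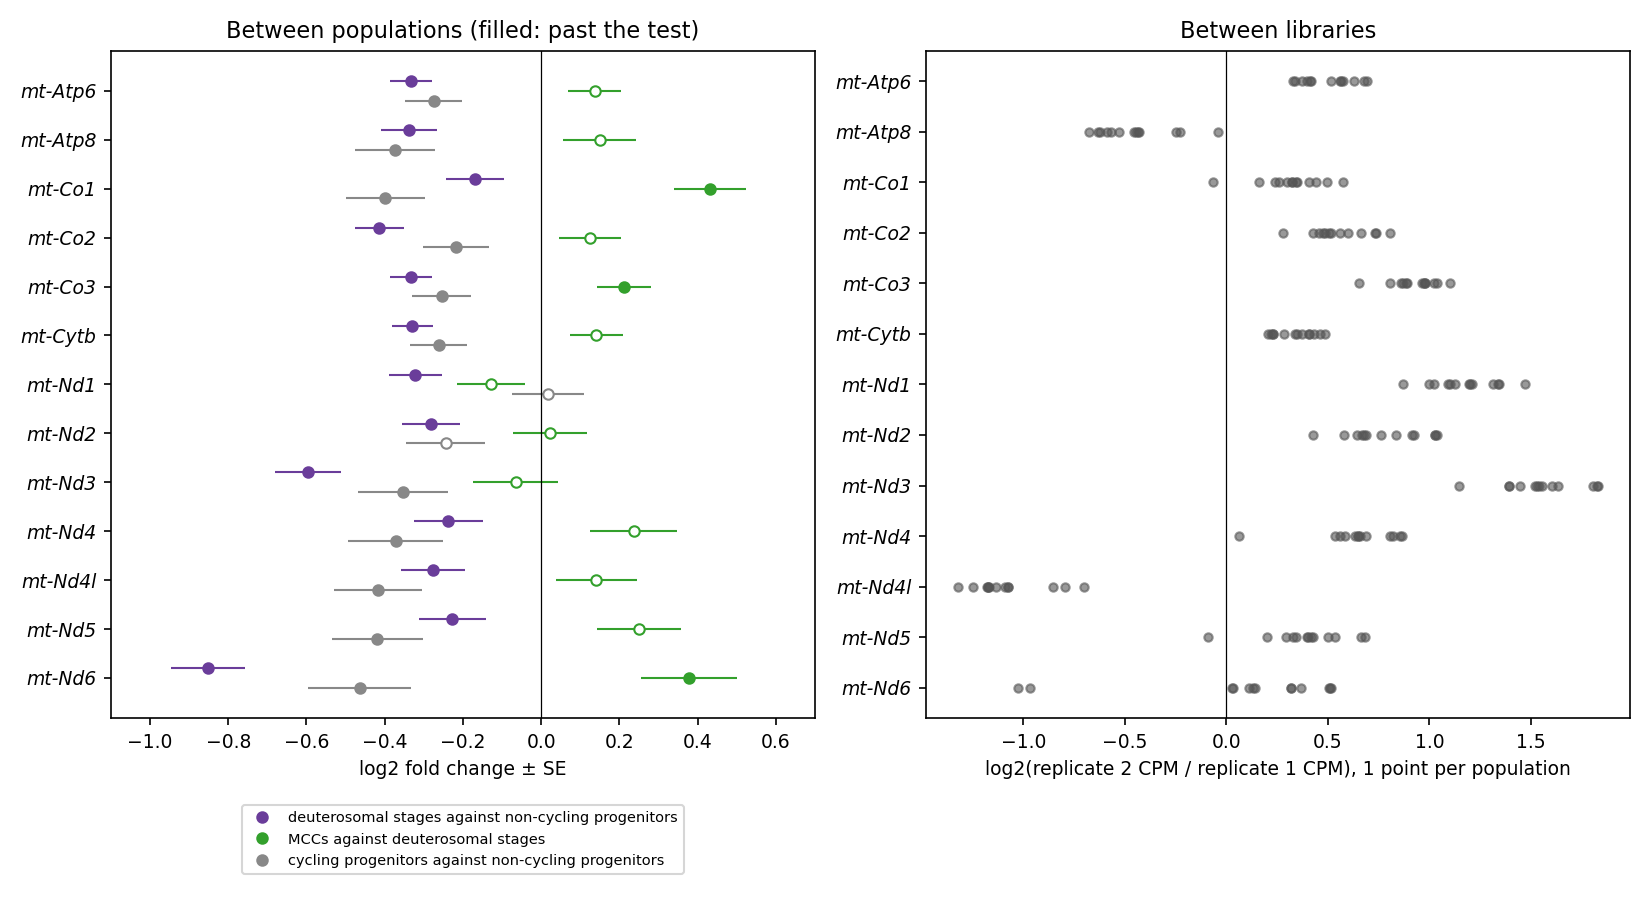
Left, log2 fold change ± SE of the 13 mitochondrially encoded members in 3 comparisons (colours), filled where the test was passed. Right, log2 ratio of replicate 2 to replicate 1 CPM, with 1 point for each of 13 populations; mt-Nd3 lies highest and mt-Nd4l lowest (3.08 and 0.456 as ratios over all cells).

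MCCs were then compared with deuterosomal stages, to see what changes between centriole production and cilia growth. Nuclear members were lower in 40 of 95 cases and higher in 7, against 25.7% of all genes lower and 28.0% higher. Their median was −0.18, that of all genes 0.04. Lower members came from every complex: 18 of 39 complex I subunits, 4 of 8 assembly factors, 4 of 8 in complex II, 3 of 8 in complex III, 6 of 15 in complex IV and 5 of 17 in complex V. Beside 25.7% of all genes, the 29.4% of complex V was near the background and the 46.2% of complex I subunits above it. The other classes held only 8 or 15 genes each. Each call had the same sign in each library. The split depended on scaling: it was 15 higher and 28 lower with relative log expression size factors, 10 and 36 without TMM factors, and 21 and 28 with DESeq2. Relative log expression moved the median of all genes from 0.04 to 0.17, and relative to that median the nuclear median stayed lower, at −0.05. Without the block 4 were higher and 11 lower.

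Several of the genes furthest down had been higher in the deuterosomal stages. Ndufaf3 was lower by 1.65 (log2 −1.65, SE 0.14, adjusted p = 1.9e-09), Cox6b2 by −1.87 (SE 0.21, adjusted p = 1.7e-06), Atp5g1 by −0.99 (SE 0.09, adjusted p = 2.5e-09) and Cox7a2 by −0.96 (SE 0.09, adjusted p = 1.4e-09). Both comparisons share the deuterosomal cells, so these values are not independent of those above. Ndufs5 (−0.79, SE 0.10) and Ndufb9 (−0.55, SE 0.09) led the complex I subunits. Ndufaf4 led the remaining assembly factors (−0.81, SE 0.13, adjusted p = 8.5e-06), with log2 differences of −0.59 in replicate 1 and −1.47 in replicate 2. Sdhd (−0.71, SE 0.08), Sdhaf3 (−0.62, SE 0.13), Uqcrq (−0.60, SE 0.08), the iron-sulfur protein Uqcrfs1 (−0.34, SE 0.09) and Atp5l (−0.46, SE 0.09) were lower too.

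Higher in MCCs were Cox7a1, from 7.14 and 3.92 CPM over deuterosomal stages to 18.2 and 17.3 CPM (1.67, SE 0.19, adjusted p = 1.5e-07), Cox8c, from 0.485 and 0.537 to 1.95 and 1.46 CPM (1.79, SE 0.40, adjusted p = 0.00065), Ndufa4l2 (0.58, SE 0.12, adjusted p = 0.00031), Ndufaf2 (0.47, SE 0.10), Ndufaf1 (0.23, SE 0.10), Cox7a2l (0.31, SE 0.10, adjusted p = 0.0096) and Atp5h (0.22, SE 0.08). Cox6b2 thus had its highest levels in mid and late deuterosomal cells, while Cox7a1 was lowest in mid deuterosomal cells among the progenitor and lineage populations in both libraries. Of the mitochondrially encoded members 3 were higher and none lower, mt-Co1 (0.43, SE 0.09, adjusted p = 0.00048), mt-Nd6 (0.38, SE 0.12, adjusted p = 0.012) and mt-Co3 (0.21, SE 0.07, adjusted p = 0.011). The background was 28.0% of all genes higher and 25.7% lower. With relative log expression factors or DESeq2, 10 mitochondrially encoded members were higher. Without the block edgeR called 0, with 1 at an unadjusted p under 0.05. mt-Co1 had 8025 and 10515 CPM over deuterosomal stages and 11239 and 14266 CPM in MCCs.

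Set directly against non-cycling progenitors, MCCs had 14 nuclear members higher and 22 lower, beside 28.7% and 28.0% of all genes, so both shares lay under the background. The median was −0.08 for nuclear members and −0.03 for all genes. This split turned with the scaling, to 20 higher and 9 lower with relative log expression factors, 17 and 15 without TMM, and 24 and 17 with DESeq2. Single genes stood out more than the group. Ndufa4l2 had 7.71 and 10.1 CPM over non-cycling progenitors and 24.8 and 38.4 CPM in MCCs, with 38.9 and 50.3 CPM in early MCCs (1.75 for MCCs, SE 0.13, adjusted p = 4.3e-11). Its share of the UMIs of Ndufa4 and Ndufa4l2 was 0.672% ± 0.257 (SD, n = 2) in progenitors I and 3.41% ± 1.26 in MCCs. Ndufaf3 (1.33, SE 0.13, adjusted p = 1.8e-08), Ndufb5 (0.64, SE 0.11), Ndufaf7 (0.59, SE 0.10), Sdhaf4 (0.53, SE 0.08), Cox7a1 (0.55, SE 0.17, adjusted p = 0.0086), Atp5md (0.51, SE 0.13) and Cox5a (0.26, SE 0.09) were also higher.

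Lower in MCCs than in non-cycling progenitors were Ndufaf4 (−0.77, SE 0.13), Sdhaf3 (−0.71, SE 0.12), the complex I subunit Ndufa5 (−0.53, SE 0.08), Cox7a2l (−0.43, SE 0.11), Uqcrfs1 (−0.42, SE 0.09), Uqcrh (−0.32, SE 0.10), Atp5j2 (−0.30, SE 0.08), Atp5g1 (−0.25, SE 0.09), Cox7c (−0.24, SE 0.09), Sdhd (−0.22, SE 0.08), Atp5g2 (−0.21, SE 0.09) and Cox8a (−0.20, SE 0.08). Cox6b2 and Cox7a2 did not pass, with −0.15 (SE 0.21, adjusted p = 0.56) and 0.02 (SE 0.09, adjusted p = 0.87), and Cox6b2 differed in sign between replicates, at −0.62 and 0.51. Mitochondrially encoded members were lower in 7 of 13 cases (mt-Nd3 by −0.66, mt-Nd6 −0.47, mt-Nd1 −0.45, mt-Co2 −0.29, mt-Nd2 −0.26, mt-Atp6 −0.20 and mt-Cytb −0.19) and higher in 1, mt-Co1 (0.26, SE 0.10, adjusted p = 0.03). The background was 28.0% of all genes lower and 28.7% higher. Only 3 mitochondrially encoded members were lower with relative log expression factors or DESeq2. Without the block edgeR called 0 either way, with 1 lower at an unadjusted p under 0.05.

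Cycling progenitors show division without multiciliation. Against non-cycling progenitors 20 nuclear members were higher and 12 lower, beside 17.4% and 21.3% of all genes, with a median of 0.02 against −0.10. The lead was held by Ndufaf4 (0.77, SE 0.12, adjusted p = 1.4e-05), at 57.6 and 48.7 CPM against 30.9 and 29.3 CPM, Ndufa5 (0.69, SE 0.08, adjusted p = 9.1e-08), at 270 and 210 CPM against 171 and 119 CPM, and Ndufaf2 (0.66, SE 0.10). All 3 were absent from the genes higher in deuterosomal stages. Cox5a (0.52, SE 0.09), Cox7a2 (0.45, SE 0.09), Atp5g1 (0.45, SE 0.09), Sdhd (0.43, SE 0.08), Atp5g2 (0.35, SE 0.09), Uqcr10 (0.33, SE 0.08), Ndufa12 (0.29, SE 0.09), Uqcrq (0.24, SE 0.08) and Sdhb (0.19, SE 0.07) were higher as well. Ndufa4l2 (−0.90, SE 0.23), Cox7a2l (−0.56, SE 0.11), Ndufv3 (−0.42, SE 0.09), Cox4i1 (−0.42, SE 0.09), Sdhaf2 (−0.36, SE 0.11), Uqcrh (−0.34, SE 0.10) and Ndufaf8 (−0.28, SE 0.09) were lower. Cox8c was lower too, with 0.318 and 0 CPM.

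Mitochondrially encoded members were lower in 11 of 13 cases in cycling progenitors, beside 21.3% of all genes. These values ran from −0.46 for mt-Nd6 to −0.22 for mt-Co2, and the median of the 13 was −0.35. mt-Nd2 (−0.24, adjusted p = 0.057) and mt-Nd1 (0.02, adjusted p = 0.91) did not pass. Without the block edgeR called 0 mitochondrially encoded members, with 1 at an unadjusted p under 0.05 (DESeq2, with the block, called 11 lower), and 2 nuclear members were higher and 4 lower. Cycling progenitors and deuterosomal cells are compared here with the same progenitors, so that the low mitochondrial values in both are not independent.

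Outside the lineage, the calls hung on the scaling. Neuroblasts had 5 members higher and 55 lower than non-cycling progenitors (17.4% and 27.1% of all genes), OPCs 14 and 40 (17.2% and 23.6%), oligodendrocytes 22 and 33 (14.7% and 26.8%) and microglia 20 and 24 (28.0% and 24.6%). Without TMM factors these became 14 and 21, 37 and 16, 48 and 11, and 4 and 67. The median of all genes shifted at the same time from −0.41 to −0.12 in neuroblasts, from −0.51 to −0.22 in oligodendrocytes, from −0.29 to −0.06 in OPCs and from −0.04 to −0.37 in microglia. No general direction is given for these cells for that reason. Cytosolic ribosomal protein genes took 13.7% to 16.2% of UMIs in them.

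Some isoforms still differed between these cells and non-cycling progenitors. Cox7a1 had no UMI in neuroblasts or oligodendrocytes. Set against the 3 counts that a 0 allows over both libraries, it was at least 4.18-fold lower in neuroblasts and at least 3.88-fold lower in oligodendrocytes than the 10.8 CPM of non-cycling progenitors. Ndufa4l2 had none in oligodendrocytes, at least 3.21-fold lower than 8.93 CPM. Cox6b2 was lower in neuroblasts (−2.69, SE 0.67, adjusted p = 0.0042), OPCs (−2.55, SE 0.60, adjusted p = 0.0031), oligodendrocytes (−1.68, SE 0.56, adjusted p = 0.026) and microglia (−1.15, SE 0.34, adjusted p = 0.01). Its share of Cox6b1 and Cox6b2 was 3.87% and 1.22% in microglia and 1.80% and 0.587% in OPCs. The multiciliated markers also differed between the libraries there, at 87.4 and 14.4 CPM in microglia and 50.1 and 5.85 CPM in OPCs. The part of such transcripts in these values was not tested. Cox6a2, the heart and muscle form of subunit 6a, had 15 UMIs in microglia of replicate 1 and 1 in those of replicate 2, at 3.49 and 1.44 CPM, against 0.0179 and 0.142 CPM over non-cycling progenitors. It passed the low count filter through microglia, the population where it was high, so these levels are given with no test. Cox6a2 stayed among the members fitted, so the count of members higher in microglia may include it.

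Further values outside the lineage concern abundant members. These log2 fold changes rest on TMM factors, as do those of Cox6b2 above, and their size depends on the scaling. Without TMM factors the median of all genes moved from −0.04 to −0.37 in microglia and from −0.41 to −0.12 in neuroblasts. Sdhb, the iron-sulfur subunit of complex II, was higher in oligodendrocytes, at 365 and 310.5 CPM against 159 and 140 CPM (0.89, SE 0.09, adjusted p = 2.7e-08). Cox6a1 was higher there as well (0.78, SE 0.12, adjusted p = 7.0e-06). Ndufa5 was higher in OPCs (0.78, SE 0.10, adjusted p = 7.7e-07) and neuroblasts (0.48, SE 0.11, adjusted p = 0.00072), and Ndufaf4 in OPCs (0.96, SE 0.22, adjusted p = 0.00096). Both genes were also higher in cycling progenitors, and the dividing cell markers averaged 364 and 752 CPM in OPCs and 361 and 540.5 CPM in neuroblasts, against 538 and 614 CPM in cycling progenitors. The part of dividing cells in these values was not tested. Microglia had more Cox5a (0.76, SE 0.09, adjusted p = 1.2e-07) and Cox7a2l (0.57, SE 0.11, adjusted p = 6.3e-05) and less Ndufa7 (−0.63, SE 0.13, adjusted p = 0.00024). mt-Co1 was lower in neuroblasts (−0.90, SE 0.10, adjusted p = 4.9e-07) and OPCs (−0.84, SE 0.10, adjusted p = 1.6e-06). Cox4i1, the most abundant nuclear member at 1403 CPM over replicate 1 and 1607 CPM over replicate 2, was lower in neuroblasts (−0.60, SE 0.09) and OPCs (−0.55, SE 0.09).

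Neighbouring mitochondrial gene groups were read from the same fits. Their counts stand against the shares of all genes given above: 36.2% higher and 34.3% lower in deuterosomal stages, 28.0% and 25.7% in MCCs against deuterosomal stages, 28.7% and 28.0% in MCCs against non-cycling progenitors, and 17.4% and 21.3% in cycling progenitors. Mitochondrial ribosomal protein genes, which translate the mitochondrially encoded members, were higher in deuterosomal stages in 47 of 78 cases and lower in 11 (median 0.26), led by Mrpl39 (1.56, SE 0.07) and Mrpl24 (1.49, SE 0.08), with Mrps6 lowest (−1.09, SE 0.13). In cycling progenitors 34 were higher and 4 lower (median 0.21), and in MCCs against deuterosomal stages 2 were higher and 51 lower (median −0.31). With DESeq2 these counts were 45 and 14, 36 and 6, and 11 and 38. Cytosolic ribosomal protein genes went the other way in deuterosomal stages, with 3 of 82 higher and 77 lower (median −0.58).

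Genes of the citric acid cycle and pyruvate dehydrogenase were higher in 9 of 16 cases and lower in 3 in deuterosomal stages, with Idh3g (0.97, SE 0.06) and Idh3a (0.87, SE 0.06) of isocitrate dehydrogenase highest, and Pdha1 (−0.76, SE 0.08) and Suclg2 (−0.73, SE 0.07) lowest. Glycolysis genes were lower in 13 of 16 cases and higher in 2 (median −1.05), with Aldoc (−2.11, SE 0.19) and Hk1 (−1.58, SE 0.08) lowest, and higher in 11 and lower in 3 of 16 in MCCs against deuterosomal stages (median 0.56). Aldoc is also in the astroglial marker list, whose mean level was 724 and 764 CPM in progenitors I and 75.9 and 89.3 CPM in mid deuterosomal cells. Of all genes, 36.2% were higher and 34.3% lower in deuterosomal stages. The 2 glycolysis genes that were higher there were Tpi1 (0.32, SE 0.09) and Pgam1 (0.26, SE 0.06).

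Complex IV assembly genes had 6 of 14 higher (42.9%) and 4 lower (28.6%) in deuterosomal stages, beside 36.2% and 34.3% of all genes, with Cox18 (1.26, SE 0.07), which inserts a mitochondrially encoded subunit, and Cox20 (0.87, SE 0.06) highest. Electron carriers and the enzymes that feed ubiquinone had 8 of 17 higher (47.1%) and 6 lower (35.3%, near the background): Pdss1 (1.35, SE 0.19) and Coq9 (0.88, SE 0.08), both of ubiquinone synthesis, were higher, and Coq8a (−2.02, SE 0.11) and Gpd2 (−1.03, SE 0.10), a glycerol phosphate dehydrogenase, were lower. Cycs, cytochrome c, was higher in cycling progenitors (0.96, SE 0.09) and lower in MCCs than in non-cycling progenitors (−0.66, SE 0.10, adjusted p = 2.5e-06). Of 19 biogenesis and mitochondrial DNA expression genes 6 were higher and 7 lower, shares of 31.6% and 36.8% that lie near the 36.2% and 34.3% of all genes: Polg2, the accessory subunit of the mitochondrial DNA polymerase (1.73, SE 0.11), and the regulator Nrf1 (1.01, SE 0.07) were highest, and Pprc1 (−0.98, SE 0.21) and Ppargc1a (−0.81, SE 0.10), coactivators of mitochondrial genes, lowest.

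Nucleotide exchange and outer membrane channel genes had 3 of 10 higher and 6 lower in deuterosomal stages, beside 36.2% and 34.3% of all genes. Slc25a31, the germ cell form of the ADP/ATP carrier (0.98, SE 0.28, adjusted p = 0.0035), and Vdac2 (0.81, SE 0.07) were highest, and the creatine kinases Ckmt1 (−2.13, SE 0.25) and Ckb (−1.50, SE 0.06) lowest. Hypoxia response genes had 3 of 10 higher and 6 lower in deuterosomal stages and 6 higher and 3 lower in MCCs against non-cycling progenitors (28.7% and 28.0% of all genes), where Car9 (2.44, SE 0.22) and Slc2a1 (1.54, SE 0.12) were highest and Vegfa (−2.58, SE 0.20) and Egln3 (−1.20, SE 0.15) lowest. The hypoxia-linked member Ndufa4l2 was higher there too, as given above. It was also higher in deuterosomal stages, where this list had 3 higher and 6 lower. A link between Ndufa4l2 and these genes was not tested. Genes that fold the inner membrane had 4 of 8 higher and 2 lower in deuterosomal stages, with Chchd6 highest (0.95, SE 0.15).

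Near-identical sequence limits some of these values. The last 300 bases of 26 members (19 nuclear and 7 mitochondrially encoded) matched at least 1 other annotated transcript at 95% identity or more over at least 100 bases. For 2 of them, Atp5l and Ndufaf7, such a gene was itself in the count table. Reads that fit several places can be lost or split between genes.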

How the data were processed

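Single-cell 3′ RNA sequencing libraries (10x v3) of 2 cultures were measured. The deposited table holds raw UMI counts per gene and cell, which the authors made with Cell Ranger. The submitters' processing notes name versions 3 and 5.0.1 and the build mm10, without assigning a version to a library. Cell population and cell cycle names are the authors' deposited annotation, and no doublet caller was run. Counts were summed per population and library (16401 cells, 14 populations; fibroblasts, under 20 cells in 1 library, were not fitted), giving 26 sums. edgeR 4.0.16 (R 4.3.3) fitted 15877 genes by quasi-likelihood with TMM factors (0.739 to 1.20), population, and library as a block, leaving 12 residual degrees of freedom. P-values were adjusted over all genes (Benjamini-Hochberg, 0.05). The block was used because the 2 libraries each hold all populations; deviations of sums from the same library correlated with a median of 0.355 (lowest −0.145). The procedure was tested on simulated data. DESeq2 1.42.0 was an alternative. Named genes are the 2 highest and 2 lowest past the test in each class and comparison, plus paired forms and mitochondrial genes. A gene that this rule names is not reported here. Members and lists were chosen with earlier results of these data known. Positions come from GENCODE M21 (mm10). With 2 libraries the depth was 173510950 and 70611931 UMIs.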

Additional observations from a re-analysis of the deposited data

How the results depend on the processing

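Of the log2 fold changes of named members recomputed under alternatives with a test, 1517 kept direction and side of the threshold, 200 lost the call, 76 gained one and 1 reversed. The reversal was Ndufa4l2 in cycling progenitors, at 0.23 with 34 cells per population and library. Summed levels moved by more than the spread between libraries in 1 case, the nuclear share in MCCs, at 3.33% over nuclear genes alone against 3.15%. Leaving mitochondrially encoded UMIs out of the total raised this share in every population, from 3.25% to 3.45% in progenitors I and from 3.91% to 4.14% in early MCCs. MCCs alone passed the mark because their SD between libraries was the smallest, at 0.141. Leaving out a library leaves no residual degrees of freedom, so it gave values with no test, of which 313 moved by less than the spread and 27 by more. Counts that moved by over 1.5 times follow, with the value of the report after "from", and comparisons with no partner named are with non-cycling progenitors. With DESeq2, MCCs against non-cycling progenitors had 24 nuclear higher (from 14) and 3 mitochondrial lower (from 7), deuterosomal stages had 28 nuclear lower (from 15), MCCs against deuterosomal stages had 21 nuclear higher (from 7) and 10 mitochondrial higher (from 3), neuroblasts had 9 higher (from 5). Likewise, OPCs had 26 higher (from 14), oligodendrocytes had 43 higher (from 22) and 20 lower (from 33). With no replicate block, so that the pairing of populations by library was dropped, MCCs against non-cycling progenitors had 6 nuclear higher (from 14) and 4 nuclear lower (from 22) and 0 mitochondrial higher (from 1) and 0 mitochondrial lower (from 7), deuterosomal stages had 3 nuclear lower (from 15) and 2 mitochondrial lower (from 13), MCCs against deuterosomal stages had 4 nuclear higher (from 7) and 11 nuclear lower (from 40) and 0 mitochondrial higher (from 3), cycling progenitors had 2 nuclear higher (from 20) and 4 nuclear lower (from 12) and 0 mitochondrial lower (from 11). Likewise, neuroblasts had 0 higher (from 5) and 23 lower (from 55), OPCs had 4 higher (from 14) and 13 lower (from 40), oligodendrocytes had 5 higher (from 22) and 15 lower (from 33), microglia had 6 higher (from 20) and 3 lower (from 24). With 34 cells per population and library, MCCs against non-cycling progenitors had 3 nuclear higher (from 14) and 4 nuclear lower (from 22) and 4 mitochondrial lower (from 7), deuterosomal stages had 9 nuclear lower (from 15), MCCs against deuterosomal stages had 3 nuclear higher (from 7) and 14 nuclear lower (from 40), cycling progenitors had 9 nuclear higher (from 20) and 3 nuclear lower (from 12) and 2 mitochondrial lower (from 11). Likewise, neuroblasts had 15 lower (from 55), OPCs had 14 lower (from 40), oligodendrocytes had 12 lower (from 33), microglia had 4 lower (from 24). With relative log expression factors, MCCs against non-cycling progenitors had 9 nuclear lower (from 22) and 3 mitochondrial lower (from 7), deuterosomal stages had 24 nuclear lower (from 15), MCCs against deuterosomal stages had 15 nuclear higher (from 7) and 10 mitochondrial higher (from 3), neuroblasts had 9 higher (from 5) and 33 lower (from 55). Likewise, OPCs had 26 lower (from 40), oligodendrocytes had 39 higher (from 22) and 18 lower (from 33). With only the 2 sides in the fit, MCCs against non-cycling progenitors had 35 nuclear lower (from 22), deuterosomal stages had 31 nuclear lower (from 15), MCCs against deuterosomal stages had 12 nuclear higher (from 7) and 8 mitochondrial higher (from 3), cycling progenitors had 45 nuclear higher (from 20) and 1 mitochondrial higher (from 0). Likewise, neuroblasts had 9 higher (from 5), OPCs had 24 lower (from 40), oligodendrocytes had 39 higher (from 22), microglia had 10 higher (from 20) and 15 lower (from 24). Without TMM factors, MCCs against non-cycling progenitors had 4 mitochondrial lower (from 7), MCCs against deuterosomal stages had 6 mitochondrial higher (from 3), neuroblasts had 14 higher (from 5) and 21 lower (from 55), OPCs had 37 higher (from 14) and 16 lower (from 40). Likewise, oligodendrocytes had 48 higher (from 22) and 11 lower (from 33), microglia had 4 higher (from 20) and 67 lower (from 24). Without unannotated cells, deuterosomal stages had 26 nuclear lower (from 15), MCCs against deuterosomal stages had 12 nuclear higher (from 7) and 7 mitochondrial higher (from 3). With no low count filter, MCCs against deuterosomal stages had 5 mitochondrial higher (from 3), cycling progenitors had 12 nuclear higher (from 20), OPCs had 7 higher (from 14), oligodendrocytes had 13 higher (from 22). Likewise, microglia had 13 higher (from 20). With cells thinned to 5000 UMIs, MCCs against deuterosomal stages had 7 mitochondrial higher (from 3), cycling progenitors had 7 mitochondrial lower (from 11), neuroblasts had 22 lower (from 55), OPCs had 21 lower (from 40). Likewise, oligodendrocytes had 36 higher (from 22) and 16 lower (from 33), microglia had 11 lower (from 24). With the mitochondrially encoded genes left out, only the 95 nuclear members remain, so the nuclear counts of the main fit stand after "from" here. Neuroblasts had 8 higher (from 4) and 24 lower (from 46), and OPCs had 24 higher (from 13) and 15 lower (from 30). Oligodendrocytes had 41 higher (from 22) and 11 lower (from 23), and microglia had 29 higher (from 18) and 13 lower (from 21). For these differences the cause was not tested, except that fewer cells and thinned cells hold fewer UMIs, and thinning also left out 607 cells. The 2 libraries limit all of these calls.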
